A study of Mus musculus with 12 samples.

Results

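The genes of the motile cilium axoneme were followed in whole lungs of newborn mice given bacterial lipopolysaccharide (LPS), with a full or a reduced dose of the *Adm* gene, which encodes the peptide hormone adrenomedullin. The members are defined by gene name: every protein-coding gene of the *Dnah*, *Dnaic*, *Rsph*, *Cfap* and *Tekt* number series in the deposited count table, and *Foxj1*. This gave 57 of 21950 protein-coding genes, namely 26 *Cfap*, 15 *Dnah*, 2 *Dnaic*, 8 *Rsph* and 5 *Tekt* genes and *Foxj1*. All mice were of the C57Bl/6J strain and were studied on postnatal day 5. WT (*Adm*+/+) and *Adm*+/- mice, the latter heterozygous for a deficient *Adm* allele in the whole body, received either 6 mg/kg of LPS of *Escherichia coli* O55:B5 or an equal volume of PBS into the peritoneum once daily from postnatal day 3 to 5, and lungs were taken 6 h after the third injection. Each of the 4 groups (WT PBS, WT LPS, *Adm*+/- PBS and *Adm*+/- LPS) has 3 libraries, each from 1 mouse and named here by its library number.

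A motile cilium beats because dynein motors, held as outer and inner arms on a ring of doublet microtubules, slide neighbouring doublets past each other, while radial spokes and a central pair of microtubules regulate the motors. *Dnah* genes encode the dynein heavy chains that carry the motor, *Dnaic* genes the intermediate chains of the outer arm, *Rsph* genes the radial spokes, and *Tekt* genes the tektin filaments inside the doublet wall. *Cfap* genes encode many further axonemal parts, and Foxj1 is the transcription factor that switches this programme on in cells that build motile cilia. In the lung these cells are the multiciliated cells that line the conducting airways and move mucus out of them, and they are a small part of the whole organ.

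Total counts per library lay between 22382535 and 38062873, and the members together took 0.0665% to 0.1114% of the protein-coding counts of a library (12982 to 31716 reads), so their values rest on few reads compared with the whole. In WT PBS 5 and *Adm*+/- PBS 6 protein-coding genes held just 77.76% and 80.13% of all counts (84.26% to 87.62% in the 10 remaining libraries), and the noncoding gene *Gm26917* took 16.58% and 13.31% of counts, against 5.42% to 7.4%. Counts of calls and medians with LPS of all members together and of the lists of other cilium genes are given below with and without both libraries together, and levels, ranges and group means include both unless stated otherwise. The WT LPS libraries differed from all others in skeletal muscle markers, with summed levels given at the end. *Adm*, the gene behind the genotype labels, averaged 5.21 ± 1.66 CPM (SD, n = 3; read counts scaled to library size) in WT PBS, 6.79 ± 2.03 in WT LPS, 3.69 ± 0.855 in *Adm*+/- PBS and 4.65 ± 1.42 in *Adm*+/- LPS. Its level in *Adm*+/- was lower on average but the groups overlapped, and edgeR's quasi-likelihood test with Benjamini-Hochberg adjustment gave adjusted p = 0.999 in PBS and 0.48 in LPS. The 16 ciliated cell markers outside the member list, led by *Sec14l3*, *Tppp3* and *Ccdc153*, were all above 0 in each group and summed to 461 to 845 CPM per library.

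Levels between genes were compared per length, as CPM per kilobase of exon (mean over 12 libraries). *Foxj1* stood highest at 16.2 CPM per kb. It was followed by *Cfap43*, part of the complex that tethers inner arm motor heads, at 10.5 CPM per kb, by *Cfap20*, which seals the inner junction of the doublet, at 9.62, and by *Cfap36* at 8.39. Over the 56 members that could be tested the median was 1.74 CPM per kb, and the lowest was *Tekt3* at 0.191. *Rsph6a*, a spoke head gene best known from sperm, was counted 0 to 8 times per library and was the 1 member with too few reads to test.

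**Figure D1:**
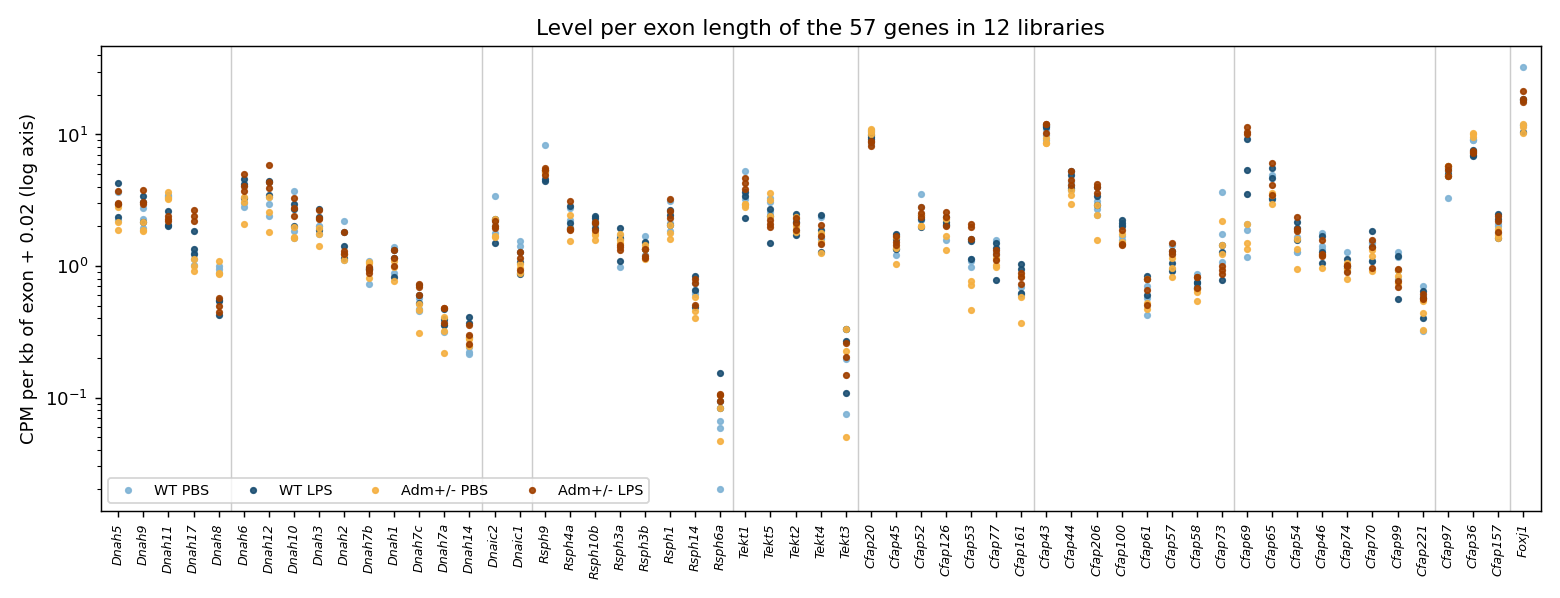
Level of each of the 57 genes in 12 libraries, as CPM per kb of exon plus 0.02 on a log axis, with genes grouped by role (from left: outer arm heavy chains, inner arm heavy chains, intermediate chains, radial spokes, tektins, *Cfap* genes of the doublet lumen, of tethers and bases, of the central apparatus, other *Cfap* genes, *Foxj1*). *Foxj1* stands at the top with a mean of 16.2 CPM per kb, and *Rsph6a* at the bottom with 0 to 8 counts per library.

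Within roles the levels per length differed widely. Outer arm heavy chains ran from 0.704 CPM per kb for *Dnah8* to 2.89 for *Dnah5*, the airway outer arm motor, and inner arm heavy chains from 0.269 for *Dnah14* to 3.6 for *Dnah6*. Among radial spoke genes, *Rsph9*, a spoke head subunit of airway cilia, was highest at 5.37 CPM per kb, and among tektins *Tekt1* at 3.51. *Cfap* genes of the central apparatus spanned 0.504 CPM per kb (*Cfap221*) to 5 (*Cfap69*). Exon lengths ran from 921 to 26820 bp. In CPM, which does not divide by length, *Cfap43* (73.8), *Dnah6* (47.7) and *Dnah5* (45.2) were the highest of the 57 and the median of the tested members was 7.44.

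Promoter sequence is shown because some of these genes share a DNA element that the definition by name does not use. RefSeq (GRCm38.p6) start sites were at hand for 46 of the 57 genes, and each was searched from 250 bases before to 50 after the start on both strands. The search was for the forkhead letters GTAAACA, the motif class of Foxj1, for GTTGCC, the core of the X-box read by RFX factors, and for GTTGC followed after any 3 bases by GCAAC, the inverted repeat form of the X-box, whose letters overlap those of the core in some promoters. The inverted repeat was added after member promoters had been looked at. It was present in 8 of 46 members (17.4%) against 0.312% of 16341 protein-coding genes (51 genes), GTTGCC in 16 members (34.8%, against 14.1%), and GTAAACA in 4 (8.7%, against 3.48%). The 8 genes were *Dnah6*, *Dnah7a*, *Dnah7b*, *Dnah7c*, *Dnaic2*, *Rsph3b*, *Tekt2* and *Tekt4*, of which the 3 *Dnah7* genes are near copies of each other and do not count as separate cases. A match of letters is not a bound site. In the 100 bases before the start site (5′ to 3′ on the gene's strand, capitals mark matches to the searched letters), 7 of the 8 read as follows, and the repeat of *Rsph3b* lay outside this stretch:
Dnah6 (chr6:73221632-73221731, minus strand): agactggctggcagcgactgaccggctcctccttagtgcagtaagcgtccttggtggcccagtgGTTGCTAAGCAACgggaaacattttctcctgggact
Dnah7a (chr1:53706785-53706884, minus strand): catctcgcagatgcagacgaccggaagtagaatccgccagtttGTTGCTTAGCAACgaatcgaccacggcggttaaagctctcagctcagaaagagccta
Dnah7b (chr1:46066753-46066852, plus strand): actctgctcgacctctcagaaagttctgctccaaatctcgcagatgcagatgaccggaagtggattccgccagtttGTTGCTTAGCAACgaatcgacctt
Dnah7c (chr1:46425418-46425517, plus strand): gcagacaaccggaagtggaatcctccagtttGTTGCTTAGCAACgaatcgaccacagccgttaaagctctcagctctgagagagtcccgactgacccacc
Dnaic2 (chr11:114727319-114727418, plus strand): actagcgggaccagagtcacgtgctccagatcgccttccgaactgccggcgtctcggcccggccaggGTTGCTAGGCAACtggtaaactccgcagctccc
Tekt2 (chr4:126325689-126325788, minus strand): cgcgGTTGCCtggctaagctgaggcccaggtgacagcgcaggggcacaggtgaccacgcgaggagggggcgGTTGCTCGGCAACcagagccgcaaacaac
Tekt4 (chr17:25471490-25471589, plus strand): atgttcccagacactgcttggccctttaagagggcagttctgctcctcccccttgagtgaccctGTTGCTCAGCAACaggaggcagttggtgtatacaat

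As 8 of 46 members held the repeat, its absence is common, and no link between these letters and LPS is read here. *Dnah6* and *Dnah7c*, which hold it, were themselves called higher with LPS in *Adm*+/-, as described below. For comparison, the same stretch of *Cfap69* and *Dnah11*, genes described below whose level changed most with LPS or fell in both genotypes, held none of the searched letters:
Cfap69 (chr5:5664233-5664332, minus strand): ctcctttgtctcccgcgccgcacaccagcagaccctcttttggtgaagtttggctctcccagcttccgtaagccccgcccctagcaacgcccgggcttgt
Dnah11 (chr12:118199044-118199143, minus strand): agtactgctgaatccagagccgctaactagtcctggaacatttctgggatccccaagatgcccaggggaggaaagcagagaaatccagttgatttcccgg

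The members did not form a uniform block across libraries. *Adm*+/- PBS 6 held the lowest value for 26 of the 56 tested members, and library WT LPS 9 held it for 13. Library WT PBS 5 held the highest value for 15 members, library *Adm*+/- LPS 12 for 13 and library WT LPS 11 for 12. Summed over all 57 genes, the level was 846.2, 779.8 and 959.6 CPM in WT PBS 3, 4 and 5, and 833.4, 941.0 and 1025 in WT LPS 9, 10 and 11. It was 682.9, 818.4 and 772.7 CPM in *Adm*+/- PBS 6, 7 and 8, and 975.6, 949.6 and 1130 in *Adm*+/- LPS 1, 2 and 12. The WT groups overlapped and the *Adm*+/- groups did not, with or without WT PBS 5 and *Adm*+/- PBS 6. In whole lung, a change in the number of ciliated cells and a change in RNA per ciliated cell cannot be told apart.

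**Figure D2:**
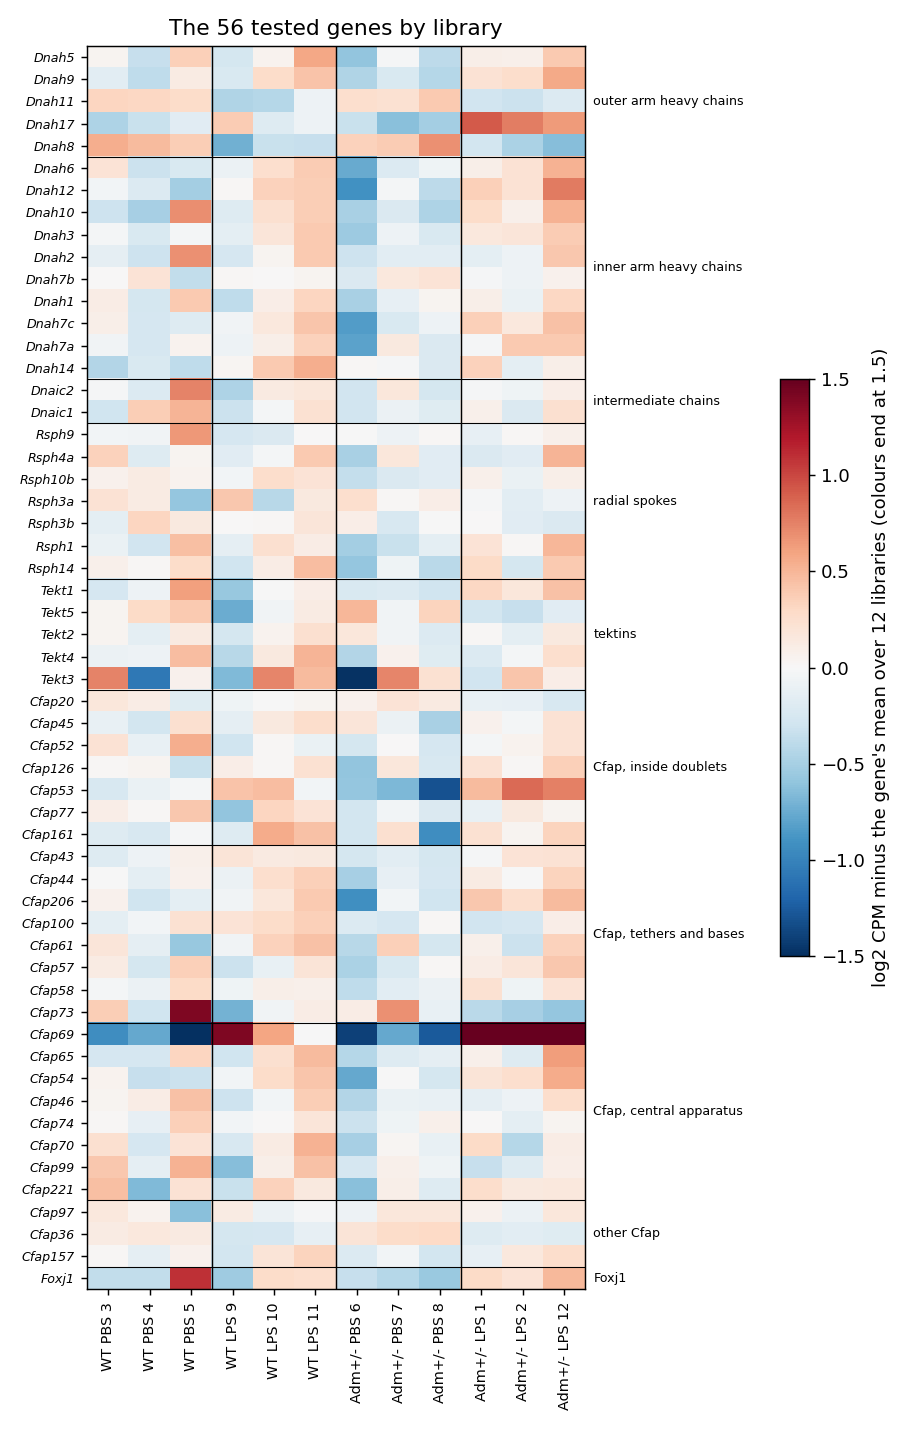
Log2 CPM of each of the 56 tested genes in each library minus the gene's mean over the 12 libraries, with genes in rows grouped by role and libraries in columns grouped by genotype and exposure. Most rows are pale, *Cfap69*, *Dnah17* and *Cfap53* are deepest red in *Adm*+/- LPS, *Dnah8* and *Dnah11* are blue in both LPS groups, and *Adm*+/- PBS 6 holds the lowest value of 26 genes.

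LPS exposure was compared with PBS in each genotype to find which axoneme genes changed in the exposed newborn lung. A gene was called when the edgeR adjusted p over all 15885 tested genes was under 0.05 and the log2 fold change was above 0.5 in size. In WT lungs 4 of 56 members were called: *Cfap69* and *Dnah14* rose, and *Dnah8* and *Dnah11* fell. That is 2 members higher, where 10.5% of all tested genes were called higher, and 2 members lower, where 7.09% of all genes were. The groups did not overlap for 4 members with LPS higher (18.3% of all genes) and for 3 with LPS lower (17.9% of all genes). The median log2 fold change was 0.06 over the members and 0.01 over all tested genes, and 33 of 56 members had a positive one. Without WT PBS 5 and *Adm*+/- PBS 6 together, *Cfap69* was the 1 member called higher, *Dnah8* and *Dnah11* were called lower, the members' median was 0.11, and the groups did not overlap for 9 members with LPS higher (24.1% of all genes) and 4 with LPS lower (25.5%).

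In *Adm*+/- lungs 12 of 56 members were called, 10 higher (12.8% of all tested genes) and 2 lower (12.2% of all genes). *Cfap69*, *Cfap53*, *Dnah17*, *Dnah12*, *Cfap206*, *Dnah9*, *Dnah7c*, *Cfap54*, *Dnah6* and *Dnah3* rose, and *Dnah8* and *Dnah11* fell. Groups did not overlap for 22 members with LPS higher (26.6% of all genes) and for 7 with LPS lower (27.1% of all genes). The median log2 fold change of the members was 0.28, against -0.01 over all tested genes, and 44 of 56 were positive. Of the 10 higher calls, 5 were left without *Adm*+/- PBS 6, 6 without *Adm*+/- LPS 1 and 3 without *Adm*+/- LPS 12 (*Cfap69*, *Dnah17* and *Cfap53*), and without both WT PBS 5 and *Adm*+/- PBS 6 there were 8, then with *Dnah10* and *Foxj1* and without *Dnah7c*, *Dnah6*, *Dnah3* and *Cfap54*. In that fit the members' median was 0.23, and the groups did not overlap for 23 members with LPS higher (31.8% of all genes) and 8 with LPS lower (33.1%). For fits that left out libraries, here and below, the share of all genes called was not counted.

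**Figure D3:**
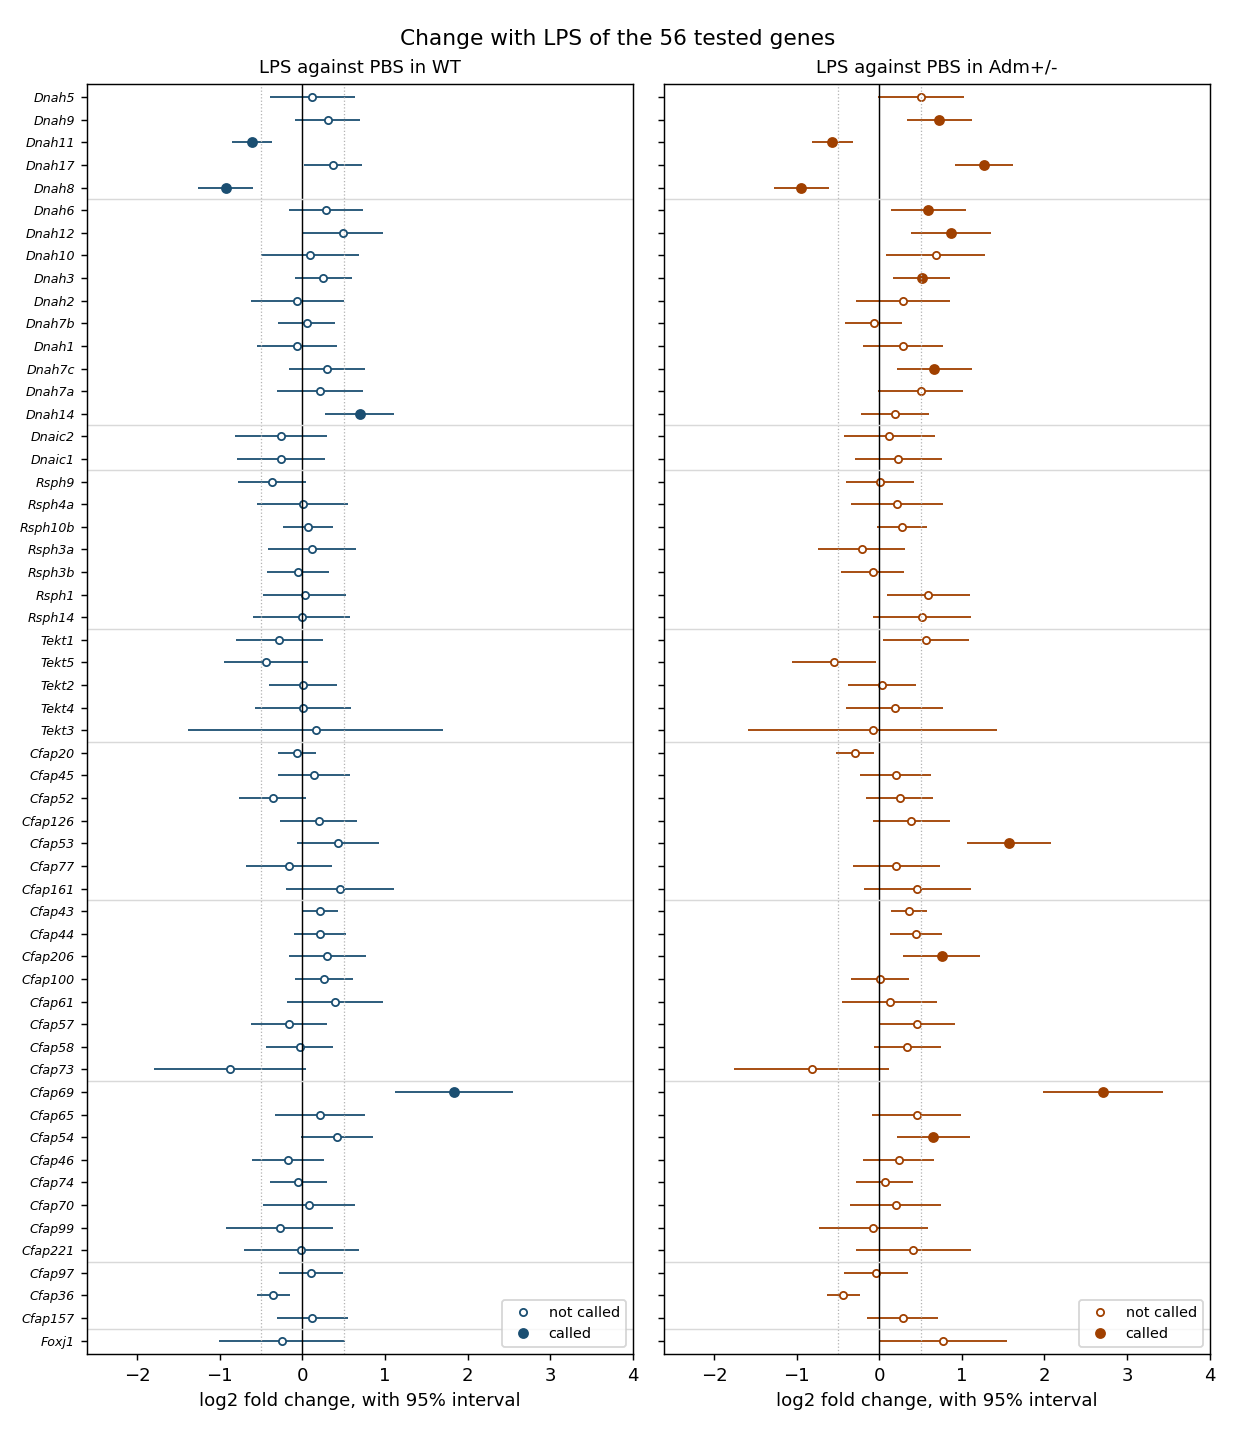
Log2 fold change of LPS against PBS with its 95% interval for the 56 tested genes, WT on the left and *Adm*+/- on the right, with filled points for called genes and dotted lines at -0.5 and 0.5. In WT 4 genes are filled and in *Adm*+/- 12, with *Cfap69* farthest to the right in both.

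*Cfap69* (chr5:5579278-5664239, mm10), which encodes a protein of the central apparatus that sperm need for motility, had the largest change of the members in both genotypes. It measured 14.6, 16.4 and 9.02 CPM in WT PBS 3, 4 and 5 and 73.5, 42 and 27.7 CPM in WT LPS 9, 10 and 11. In *Adm*+/- PBS 6, 7 and 8 it measured 10.5, 16.4 and 11.6 CPM, and in *Adm*+/- LPS 1, 2 and 12 it reached 82.7, 80.02 and 89.7 CPM. Every LPS library lay above every PBS library, and WT LPS was the most scattered group. The fold change was 3.57 in WT (log2 1.84 ± 0.33 SE, edgeR adjusted p = 0.0031) and 6.54 in *Adm*+/- (log2 2.71 ± 0.33, edgeR adjusted p = 0.000202). *Cfap69* shared no exon bases with another annotated gene, and it stayed called in both genotypes whichever of the 12 libraries was left out.

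*Dnah17* (chr11:118021723-118130634), an outer arm heavy chain known from the sperm tail, measured 16.2, 17.9 and 20.01 CPM in WT PBS and 29.2, 19.6 and 21.3 CPM in WT LPS. In *Adm*+/- it went from 17.8, 14.5 and 15.8 CPM in PBS to 42.5, 38.4 and 35.1 CPM in LPS. The WT groups overlapped and the *Adm*+/- groups lay far apart. The log2 fold change was 1.27 ± 0.16 in *Adm*+/- (edgeR adjusted p = 0.000235). In WT it was also positive, at 0.38 ± 0.16, and not called (edgeR adjusted p = 0.113). It shares 93 exon bp with *Pgs1* on the opposite strand, a gene that was itself called higher in *Adm*+/- with a log2 fold change of 0.74, and the overlap is 0.6% of the exon bases of *Dnah17*.

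*Cfap53* (chr18:74283090-74359986), a protein inside the doublet microtubules that is also needed for left-right body asymmetry, was a gene of low level. Its CPM was 2.48, 2.77 and 2.90 in WT PBS and 4.01, 4.12 and 2.87 in WT LPS, against 1.95, 1.82 and 1.15 in *Adm*+/- PBS and 4.15, 5.40 and 5.06 in *Adm*+/- LPS. *Adm*+/- PBS held the 3 lowest values and the *Adm*+/- groups did not overlap, whereas the WT groups did. The log2 fold change in *Adm*+/- was 1.57 ± 0.23 (edgeR adjusted p = 0.000545). In WT it was also positive, from 0.34 to 0.58 over the fits that left out a library, and not called.

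*Dnah8* (chr17:30624354-30877365), an outer arm heavy chain best known from sperm, fell by about the same amount in both genotypes. Its level was 26.2, 24.8 and 23.1 CPM in WT PBS and 10.8, 14.1 and 14.0 CPM in WT LPS, and 22.7, 23.3 and 28.8 CPM in *Adm*+/- PBS and 14.7, 12.8 and 11.4 CPM in *Adm*+/- LPS. All 6 LPS libraries lay below all 6 PBS libraries. The log2 fold change was -0.93 ± 0.15 in WT (edgeR adjusted p = 0.00193) and -0.94 ± 0.15 in *Adm*+/- (edgeR adjusted p = 0.000894).

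*Dnah11* (chr12:117877982-118199043), the outer arm heavy chain of the proximal part of airway cilia, measured 49.7, 49.1 and 47.9 CPM in WT PBS and 29.0, 29.6 and 37.7 CPM in WT LPS. In *Adm*+/- the values were 47.4, 46.4 and 52.2 CPM in PBS and 32.4, 31.6 and 34.5 CPM in LPS, so that no LPS library reached the PBS range. The log2 fold change was -0.61 ± 0.11 in WT (edgeR adjusted p = 0.0038) and -0.57 ± 0.11 in *Adm*+/- (edgeR adjusted p = 0.00302). *Dnah11* shares 642 exon bp (4.4%) with *Cdca7l* on the opposite strand, and *Cdca7l* was called lower as well, with log2 fold changes of -0.77 in WT and -0.87 in *Adm*+/-. Since the strand option of the counting is not given in the sources used here, how many reads the pair exchanged was not tested.

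*Foxj1* (chr11:116330704-116335399) was called in no comparison, and a single library decided its direction in WT. It measured 30.9, 30.9 and 85.3 CPM in WT PBS 3, 4 and 5, and 27.5, 48.4 and 47.6 CPM in WT LPS 9, 10 and 11. In *Adm*+/- the PBS values were 31.3, 29.7 and 27 CPM and the LPS values 48.8, 45.9 and 55.9 CPM, which did not overlap. WT PBS 5 was far above every other library, and it also had the highest sum of cartilage markers (215 CPM, against 24 to 80.8 elsewhere). The log2 fold change of LPS was -0.25 ± 0.35 in WT and 0.77 ± 0.35 in *Adm*+/- (edgeR adjusted p = 0.631 and 0.117). Without WT PBS 5 the WT value turned to 0.41, still short of the threshold, and the *Adm*+/- change was then called, as it was when the libraries of that comparison alone were fitted.

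**Figure D4:**
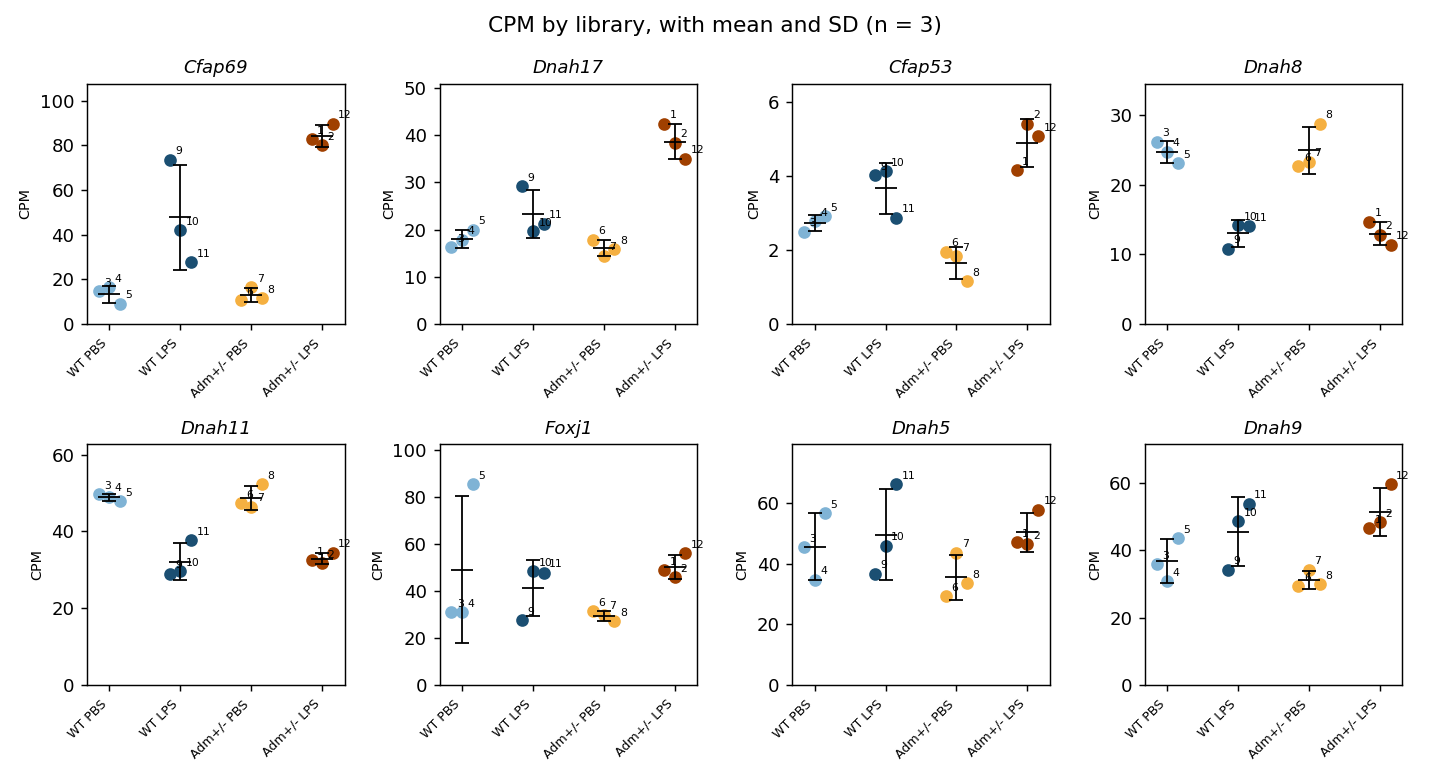
CPM of 8 axoneme genes in each library (points, with library numbers), with the mean and SD of each group (n = 3) as bars and an axis from 0. For *Cfap69*, *Dnah8* and *Dnah11* the LPS and PBS libraries do not overlap in either genotype, for *Dnah17* and *Cfap53* they overlap in WT, and for *Foxj1* WT PBS 5 stands alone at 85.3 CPM.

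By role, the numbers of genes are small, and 12.8% of all tested genes were called higher and 12.2% lower with LPS in *Adm*+/-, so that no difference between roles is read from the counts. Of the 5 outer arm heavy chains, *Dnah9* and *Dnah17* rose and *Dnah8* and *Dnah11* fell in *Adm*+/-, and *Dnah5* was not called in either genotype over the 12 libraries, with group means of 45.6 ± 11 CPM in WT PBS, 49.5 ± 15.1 in WT LPS, 35.4 ± 7.32 in *Adm*+/- PBS and 50.4 ± 6.45 in *Adm*+/- LPS (SD, n = 3). *Dnah9*, its partner in the distal part of airway cilia, went from 31.1 ± 2.70 to 51.5 ± 7.09 CPM in *Adm*+/- (log2 0.73 ± 0.18, edgeR adjusted p = 0.0104). The median log2 fold change in *Adm*+/- was 0.51 over the outer arm and 0.51 over the inner arm heavy chains, and 0.39 and 0.34 without WT PBS 5 and *Adm*+/- PBS 6. Of the 10 inner arm heavy chains, 9 had a positive fold change there, and *Dnah12*, *Dnah7c*, *Dnah6* and *Dnah3*, which encode inner arm motors with 1 head, were called. *Dnah12* was the largest of these, from 30.8 ± 9.13 to 56.4 ± 12.0 CPM (log2 0.87 ± 0.22, edgeR adjusted p = 0.0123). *Dnah9* and *Dnah12* lost their calls without *Adm*+/- LPS 12 (edgeR adjusted p = 0.0505 and 0.0598) and in no other fit that left out a library. In WT the inner arm gene called was *Dnah14*, from 3.35 ± 0.257 to 5.44 ± 0.976 CPM (log2 0.70 ± 0.19, edgeR adjusted p = 0.0245), and that call was lost without WT PBS 3 or 5 or WT LPS 10 or 11, with edgeR adjusted p up to 0.0786.

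The remaining roles are given beside shares of 17.6% of all tested genes called in either direction in WT and 25% in *Adm*+/-. *Dnaic2* and *Dnaic1*, the outer arm intermediate chains, had negative fold changes in WT and positive ones in *Adm*+/-, none called, and *Dnaic2* averaged 10.9 ± 4.01, 9.05 ± 2.05, 8.5 ± 1.6 and 9.28 ± 0.569 CPM in WT PBS, WT LPS, *Adm*+/- PBS and *Adm*+/- LPS. *Dnaic2* was at 9.13, 8.01 and 15.4 CPM in WT PBS 3, 4 and 5, and its WT change ranged from -0.44 to 0.07 over the libraries left out. Without WT PBS 5 and *Adm*+/- PBS 6, 1 of the 2 genes was positive in WT, with a median of -0.01. With LPS, edgeR called 0 of the 7 tested radial spoke genes and 0 of the 5 tektins in either genotype over the 12 libraries. None had an unadjusted p under 0.05 in WT, and in *Adm*+/- 1 spoke gene (*Rsph1*) and 2 tektins (*Tekt1* and *Tekt5*) did. DESeq2 called *Rsph1* in *Adm*+/-, as did edgeR without WT PBS 5, where it also called *Tekt1*, and with the libraries of that comparison alone, where it also called *Tekt1* and *Tekt5*. *Tekt5* was called without WT LPS 9 too. *Rsph9* was at 8.23, 8.20 and 13.3 CPM in WT PBS 3, 4 and 5, and it averaged 9.93 ± 2.96, 7.65 ± 0.792, 8.38 ± 0.268 and 8.45 ± 0.576 CPM in the same order of groups, and *Rsph4a*, another spoke head gene, 8.31 ± 1.58, 8.35 ± 1.77, 7.13 ± 1.64 and 8.30 ± 2.53. *Tekt5* averaged 5.36 ± 0.671, 3.96 ± 1.17, 5.48 ± 1.06 and 3.74 ± 0.238 CPM, and its *Adm*+/- groups did not overlap (log2 -0.55 ± 0.23, edgeR adjusted p = 0.0974). The spoke genes had a median log2 fold change of 0.22 in *Adm*+/- and the tektins of 0.03, and both were 0.07 without WT PBS 5 and *Adm*+/- PBS 6.

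Of the *Cfap* genes, the 7 that lie inside the doublets had *Cfap53* as their 1 call, in *Adm*+/-. *Cfap45*, another of them, averaged 8.03 ± 1.497, 8.83 ± 1.202, 7.66 ± 1.76 and 8.77 ± 0.758 CPM in WT PBS, WT LPS, *Adm*+/- PBS and *Adm*+/- LPS. Of the 8 of dynein tethers, regulators and spoke bases, *Cfap206*, which sits at the base of a radial spoke, was called in *Adm*+/- (log2 0.75 ± 0.21, edgeR adjusted p = 0.0202), a call lost without *Adm*+/- PBS 6, *Adm*+/- LPS 1 or *Adm*+/- LPS 12. *Cfap43* and *Cfap44*, which together form the motor tether, passed the adjusted p there (0.0161 and 0.0375) with log2 fold changes of 0.36 and 0.44, short of the size limit. Of the 8 central apparatus genes, *Cfap69* and *Cfap54* were called in *Adm*+/- and *Cfap69* in WT. *Cfap65*, of the same role, averaged 30.02 ± 7.38, 34.8 ± 9.04, 26.0 ± 2.72 and 35.6 ± 10.7 CPM in the same order of groups and was not called. Nor was *Cfap97*, one of the 3 *Cfap* genes put in no such role, which averaged 26.5 CPM over the 12 libraries. *Cfap36* passed the adjusted p but not the size limit with LPS lower, from 25.0 ± 0.280 to 19.7 ± 1.16 CPM in WT (log2 -0.35, edgeR adjusted p = 0.021) and from 27.2 ± 1 to 20.1 ± 0.255 CPM in *Adm*+/- (log2 -0.43, edgeR adjusted p = 0.00445).

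The genotypes were then compared within each exposure. In PBS no member was called, and 0% of all tested genes were. edgeR gave 2 members an unadjusted p under 0.05 (and 344 of 15885 genes), and DESeq2 and limma-voom called no member. *Adm*+/- lay wholly above WT for 2 members (2.47% of all genes) and wholly below for 6 (2.51% of all genes), and the members' median log2 fold change was -0.22. Smallest p-values belonged to *Cfap53* (log2 -0.73 ± 0.24), *Rsph10b* (-0.33 ± 0.14), *Cfap52* (-0.40 ± 0.19), *Foxj1* (-0.74 ± 0.35) and *Cfap46* (-0.41 ± 0.20), all with edgeR adjusted p = 0.999. For *Foxj1*, WT PBS 5 measured 85.3 CPM and every other PBS library 27 to 31.3. Its change ranged from -0.98 to -0.08 over the libraries left out. Without WT PBS 5 and *Adm*+/- PBS 6 together the median was -0.05, and *Adm*+/- lay wholly above WT for 4 members (14.1% of all genes) and wholly below for 9 (14% of all genes).

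In LPS, *Dnah17* was the 1 member called higher in *Adm*+/- (0.327% of all tested genes were), and none was called lower (1.72% of all genes were). Its level was 38.6 ± 3.70 CPM in *Adm*+/- LPS against 23.4 ± 5.11 in WT LPS (log2 0.72 ± 0.16, edgeR adjusted p = 0.0416), and the groups did not overlap. The call sat close to the threshold and survived leaving out a library in 4 of 12 such fits. It was lost without WT PBS 4, WT LPS 10 or 11, *Adm*+/- PBS 7 or 8, or any of the 3 *Adm*+/- LPS libraries. *Cfap69* (log2 0.82 ± 0.31), *Cfap100* (-0.42 ± 0.16), *Tekt1* (0.45 ± 0.24) and *Cfap53* (0.41 ± 0.22) followed, with edgeR adjusted p between 0.237 and 0.455, and WT LPS 9, the highest WT library for *Cfap69* at 73.5 CPM, was the library without which *Cfap69* was called too.

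Whether the LPS response itself differed between genotypes was tested with the interaction term. No member was called, where 0.145% of all tested genes were in either direction, and 4 members had an unadjusted p under 0.05 in edgeR (1247 of 15885 genes). DESeq2 called *Dnah17*, limma-voom none. The smallest p-values were those of *Dnah17* (log2 0.89 ± 0.23, edgeR adjusted p = 0.275) and *Cfap53* (1.14 ± 0.32, edgeR adjusted p = 0.373), then *Tekt1* (0.84), *Cfap52* (0.61) and *Cfap57* (0.62), and *Foxj1* had 1.02 ± 0.50. The *Foxj1* value ranged from 0.37 to 1.27 over the libraries left out. The larger number of calls in *Adm*+/- is therefore not shown to be a difference between genotypes for any member by edgeR. The median interaction was 0.24 over the members and -0.01 over all tested genes.

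Other genes of the cilium, taken from lists of their own, were counted in the same fit. With LPS, 10.5% of all tested genes were called higher and 7.09% lower in WT, and 12.8% higher and 12.2% lower in *Adm*+/-, and the counts of each list stand beside these shares. Of the 13 central apparatus genes outside the *Cfap* series, *Hydin*, *Spef2*, *Spag16* and *Ak7* were called higher and *Stk36* lower in *Adm*+/-, and *Spef1* lower in WT. Without WT PBS 5 and *Adm*+/- PBS 6, *Stk36* was the 1 of these calls left and 0 were higher. *Hydin*, whose protein joins a projection of the central pair, went from 21.2 ± 3.91 to 31.7 ± 3.73 CPM in *Adm*+/- (log2 0.58, edgeR adjusted p = 0.025). edgeR called 0 of the 10 tested genes of dynein arm light chains and docking complexes, 0 of the 11 tested arm assembly factors and 0 of the 12 genes of the nexin-dynein regulatory complex and rulers in either genotype, with 1, 3 and 0 at an unadjusted p under 0.05 in WT and 3, 2 and 1 in *Adm*+/-, except that without both libraries *Wdr78*, an intermediate chain gene of an inner arm, was called lower in *Adm*+/-. Their median log2 fold changes were -0.02, -0.13 and -0.11 in WT and 0.12, -0.07 and 0.32 in *Adm*+/-. Without both libraries they were 0.07, -0.05 and 0.09 in WT and 0.22, -0.06 and 0.18 in *Adm*+/-, so that the first and the last turned sign in WT.

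Intraflagellar transport genes, which build cilia of every kind, primary cilia included, had calls in the lower direction alone. Of 24, LPS lowered 4 in WT (7.09% of all tested genes) and 7 in *Adm*+/- (12.2% of all genes) and raised none, with median log2 fold changes of -0.28 and -0.31. Without WT PBS 5 and *Adm*+/- PBS 6 the counts were 4 and 8 lower and 0 higher, and the medians -0.32 and -0.32. *Ift172*, a subunit of the transport train, fell from 103.0 ± 21.2 to 66.5 ± 9.61 CPM in WT and from 98.3 ± 10.4 to 60.5 ± 4.31 CPM in *Adm*+/- (log2 -0.63 and -0.70, edgeR adjusted p = 0.0154 and 0.00576), and *Ift122* and *Kif3a* were called lower in both genotypes too, and *Ift27* in WT (log2 -0.51). Without both libraries *Ift172* was no longer called in WT, nor *Ift122* in *Adm*+/-. Of 16 transcription and amplification factors of multiciliated cells, *Rfx2*, one of the factors that read the X-box, was the only one called, lower in WT (log2 -0.58) and in *Adm*+/- (log2 -1.04), and it averaged 18.4 ± 2.41 and 16.8 ± 1.47 CPM in PBS against 12.3 ± 3.03 and 8.17 ± 1.16 CPM in LPS. Without both libraries *Rfx2* was called in *Adm*+/- but not in WT, *Gmnc* was called lower in *Adm*+/- and *Ankrd9* higher in WT.

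Markers of cells were read beside these results. Of the 16 ciliated cell markers none was called in WT, and in *Adm*+/- *Tmem212* was called higher and *Tppp3* lower. In each genotype 13 of the 16 had a positive fold change with LPS, with a median log2 value of 0.14 in WT and 0.40 in *Adm*+/-, beside 0.06 and 0.28 over the members. Without WT PBS 5 and *Adm*+/- PBS 6, 12 of 16 were positive in each, with medians of 0.15 and 0.19, and *Tmem212* was not called. Most of the summed level came from *Sec14l3* and *Tppp3*, which averaged 364.7 and 141.2 CPM over the 12 libraries and had negative fold changes in both genotypes. The sum was 556 to 845 CPM in WT PBS and 484 to 648 in WT LPS, and 535 to 638 in *Adm*+/- PBS and 461 to 533 in *Adm*+/- LPS, with the highest value, 844.7 CPM, in WT PBS 5. The WT ranges overlapped and the *Adm*+/- ranges did not. *Sec14l3* averaged 368 ± 15.5 CPM in *Adm*+/- PBS and 312 ± 16.4 in *Adm*+/- LPS and was not called. Of 15 club and airway secretory markers, 3 rose and 1 fell in WT and 5 rose in *Adm*+/-, and their sum was 2160 to 3280 CPM in PBS libraries and 4490 to 5590 in LPS libraries. The sums of type II pneumocyte markers (14600 to 19800 CPM, with 2 of 11 called higher in WT, 4 higher and 1 lower in *Adm*+/-) and of pan-epithelial markers (711 to 969 CPM, with 1 of 10 called higher in each genotype) overlapped between PBS and LPS in both genotypes. Without WT PBS 5 and *Adm*+/- PBS 6 neither sum overlapped, and LPS lay above PBS in both genotypes. In WT the type II sums then nearly met, at 16040 CPM in WT PBS 4 and 16050 in WT LPS 9.

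Neutrophil markers moved with LPS in both genotypes: 10 and 11 of 11 rose in WT and *Adm*+/-, and their sum went from 44.1 to 197 CPM in PBS libraries to 1690 to 3110 in LPS libraries. Skeletal muscle markers were high in all 3 WT LPS libraries, squamous and airway basal cell markers in WT LPS 9 and 11. Skeletal muscle markers summed to 742 to 2070 CPM in WT LPS and to 20.6 to 59.6 elsewhere (12 of 12 tested rose in WT, 1 in *Adm*+/-), squamous epithelium to 2850, 35.8 and 1500 CPM in WT LPS 9, 10 and 11 and to 8 to 54.9 elsewhere (7 of 9 rose in WT, 1 in *Adm*+/-), and airway basal cell markers to 803.1, 36.8 and 372.2 CPM in WT LPS 9, 10 and 11 and to 6.56 to 55.6 elsewhere (5 of 6 rose in WT, 2 in *Adm*+/-). Of neuroendocrine markers 1 and 2 of 6 tested rose in WT and *Adm*+/-, and of 10 tested cartilage markers none was called. WT LPS 9, the library with most squamous signal, was also, among the WT LPS libraries, the one with the highest *Cfap69* and *Dnah17* and the lowest *Foxj1*, *Dnah5* and *Dnah9*. What part these cells had in the members' changes was not tested.

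Read assignment limits some members. Exons of 25 of the 57 members overlap those of another annotated gene, mostly on the opposite strand. The largest overlap with a protein-coding gene that changed was between *Dnah3* and *Lyrm1* (1506 bp, 10.5% of the exon bases of *Dnah3*), where *Lyrm1* was called higher with log2 fold changes of 1.15 in WT and 1.23 in *Adm*+/-, beside a log2 fold change of *Dnah3* of 0.51 in *Adm*+/-. *Dnah7a*, *Dnah7b* and *Dnah7c*, and *Rsph3a* and *Rsph3b*, are near copies whose shared reads the counting could split or drop, so the call of *Dnah7c* alone among the *Dnah7* genes is uncertain.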

How the data were processed

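Total RNA of 12 whole lungs was depleted of ribosomal RNA and made into libraries with a directional kit. Per the labels, the authors trimmed reads with Trim Galore, aligned them with HISAT2 to mm10 and counted them per gene with featureCounts. The deposited table holds raw counts, whole numbers without normalization or filter, for 52550 genes. The strand option and the Gencode release of the counting are not given in the sources used here. Gene positions and exon lengths came from Gencode M21 (mm10), in which all 57 members were found.

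Protein-coding genes passing edgeR's filterByExpr over the 4 groups (15885 of 21950) were scaled by TMM and fitted once over the 12 libraries with edgeR 4.0.16 (R 4.3.3, quasi-likelihood F-test, 8 residual degrees of freedom, Benjamini-Hochberg adjustment over all tested genes). CPM used the TMM-scaled library sizes, and log2 CPM in plots a prior count of 2. The fit was tested on simulated data. Alternatives were RLE size factors, DESeq2 1.42.0, limma-voom 3.58.1, glmTreat against a log2 change of 0.5, no limit on fold change, no filter, all annotated genes, each comparison's own libraries, each library left out, and WT PBS 5 and *Adm*+/- PBS 6 left out together.

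The members and all gene lists were chosen with earlier results of these data known. By a rule, the text names *Foxj1*, the 2 members of highest CPM in each role, the 5 members of smallest p and all called members in each comparison, untested members, and *Adm*. Genes outside the members are called or abundant ones of their lists. The rule's 3 most abundant genes of each list are named only where a result turned on them. *Cdca7l*, *Pgs1* and *Lyrm1*, the lowest members by level, the members with the X-box repeat, and *Cfap73* were named after values or sequences were seen. Groups came from the labels, each library is a separate mouse, and no libraries of a group were identical (lowest chi-square per degree of freedom 14.6). Intervals cover the spread between libraries. Reads carry no molecular identifiers. Columns of the table are 12, all mapped to a library.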

Additional observations from a re-analysis of the deposited data

How the results depend on the processing

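With LPS in WT, the 2 lower and 2 higher calls became 1 and 1 under glmTreat and 1 and 1 with the libraries of that comparison alone, the higher calls were 1 without WT PBS 5 and *Adm*+/- PBS 6 together, and they ranged from 1 to 2 when each library was left out. In *Adm*+/-, glmTreat left 3 higher and 1 lower, and the 10 higher calls ranged from 3 (without *Adm*+/- LPS 12) to 14 (without WT PBS 5) over the libraries left out, with 5 without *Adm*+/- PBS 6 and 6 without *Adm*+/- LPS 1, and were 15, beside 3 lower, with the libraries of that comparison alone, then with *Foxj1*, *Dnah5*, *Tekt1*, *Rsph1* and *Dnah10* higher and *Tekt5* lower. For *Adm*+/- against WT in LPS, the 1 higher call became 0 under glmTreat, 0 with all annotated genes and 0 with that comparison's libraries alone, and ranged from 0 to 2 over the libraries left out. The median for genotype in PBS moved from -0.217 to -0.053 without both libraries, and the interaction median ranged from 0.129 to 0.405 over the libraries left out, highest without WT LPS 11. DESeq2 called 1 member in the interaction, where edgeR called 0. *Foxj1* in WT (log2 -0.249) ranged from -0.497 to 0.409 over the libraries left out, reversed to 0.409 without WT PBS 5 and to 0.408 without both libraries. Without both libraries, a choice made after seeing the data for the lists outside the members, the 4 higher calls among central apparatus genes in *Adm*+/- became 0. Causes of these changes were not tested, and each fit that left out libraries also had fewer samples. No paired analysis was possible because library numbers are unique to each mouse and the groups share none. At 3 libraries a group, a change that misses the threshold is not shown to be absent, least of all for the members under 10 CPM (35 of 57).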

Other observations

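Fold changes of the members were also read against exon length. The median log2 fold change with LPS was 0.22 over the 15 dynein heavy chains and 0.01 over the 41 other tested members in WT, and 0.51 and 0.23 in *Adm*+/-. Across the 56 tested members, Spearman's rho between exon length and the log2 fold change with LPS was 0.35 in WT and 0.19 in *Adm*+/-, as a description across genes that share the same libraries.

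The 3 near copies of *Dnah7* differed in level. *Dnah7b* averaged 18.5 CPM over the 12 libraries, *Dnah7c* 6.70 and *Dnah7a* 4.58 (0.928, 0.532 and 0.359 CPM per kb of exon), though the letters around the X-box repeat in their promoters are almost the same. *Dnah7b* was called with LPS in neither genotype, where *Dnah7c* was called higher in *Adm*+/-, and how reads were shared between the copies was not tested. *Cfap73*, a gene of inner arm assembly, was the member with the largest negative fitted change that was not called (log2 -0.87 in WT, edgeR adjusted p = 0.156), at 1.34 CPM and with 3.34 CPM in WT PBS 5. This change ranged from -1.2 to -0.3 over the libraries left out.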
